A study of Homo sapiens and Mus musculus with 16 samples.

Results

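The genes described here are 10 genes of the NF-kB pathway, chosen by name from the 22314 genes of the mRNA table: the subunit genes NFKB1 and RELA, the inhibitor genes NFKBIA and TNFAIP3, the survival gene BIRC3, and the cytokine and chemokine genes IL6, IL8 (also called CXCL8), CXCL1, CXCL2 and CCL2. They were measured by sequencing of poly(A) RNA in SK-HEP-1, a human liver cell line of tumour origin. Treated cells received 0.5 mg/ml of AcFBE, an ethanol extract of the fruiting body of the fungus Antrodia cinnamomea, and untreated cells received DMSO, the solvent, for 2 or 4 h. The 4 libraries are called 2U, 2T, 4U and 4T, for the hours and for untreated or treated, and there was 1 library per condition. A difference between libraries therefore has no replicate error and no test, and every ratio below compares 2 libraries. Levels are FPKM, fragments scaled to transcript length and to the mapped reads of the library. They are relative to the rest of the same library. The cDNA was amplified by PCR, and how evenly it stood for genes of unlike length and base composition was not tested. Level ratios between genes are therefore approximate.

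NF-kB is a family of dimeric transcription factors built from Rel subunits, of which the p65 (RELA) and p50 (made from NFKB1) dimer is the classical form. In resting cells the IkB proteins, with IkB-alpha (NFKBIA) the best known, hold the dimer in the cytoplasm. Receptors for TNF, interleukin-1 and bacterial products activate the IKK kinase, IkB is degraded and the dimer moves to DNA elements called kB sites. Its targets include cytokines and chemokines that call in leukocytes, genes that keep cells alive, and its own inhibitors NFKBIA and TNFAIP3 (A20), which close a feedback loop.

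Of the 10 genes, 9 were above 0 in at least 1 library and 5 reached 1 FPKM in at least 1. NFKBIA and RELA were the only members above 3 FPKM in any library. Both were several-fold lower in the treated library than in the untreated one at 2 h and again at 4 h. The chemokine genes CXCL1 and CXCL2 stood at their highest in untreated cells at 4 h, while TNFAIP3 was listed at 0 in all 4 libraries.

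Matches to kB patterns near the start sites of these genes are shown first. They are matches of letters, and binding to them was not measured. RefSeq promoter windows of 300 bases, most of which lie upstream of an annotated start site in GRCh38.p14, were at hand for 9 of the 10 members (11 windows, with 2 starts each for NFKB1 and RELA). No window was at hand for CCL2. The windows were searched on both strands for the kB consensus, for a looser kB pattern, GGNNNTTCC, and for the AP-1 pattern TGANTCA. A match to the consensus was present for 7 of the 9 members, where 5.91% of all 35116 promoter windows held one. The looser pattern was present for 8 of the 9 members and in 20.1% of all windows. It lies inside most of the consensus matches, so both counts rest largely on the same bases. A member counted if any of its windows held a match, whereas the shares over all promoters count single windows. Because the members were chosen by name for their place in the NF-kB pathway, counts above these shares were likely beforehand. They are a description only. The consensus match closest to the start site, or for IL8 its looser match, is given for each gene with 10 bases on either side, 5′ to 3′ on the strand on which the match reads as written, with the match in capitals.

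NFKB1: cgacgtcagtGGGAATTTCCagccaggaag
NFKBIA: gtcaggctcgGGGAATTTCCaagccagtca
TNFAIP3: ttgtaggcccGGGGATTTCCacgggacttt
BIRC3: ttaggacttaGGGGAACTCCagcggtaata
IL6: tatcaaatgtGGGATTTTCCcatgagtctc
IL8: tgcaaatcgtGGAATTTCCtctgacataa
CXCL1: ccccgggccaGGGAAATTCCcggagttcca
CXCL2: tcccgggccaGGGAAATTCCcggagctcca

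The sequence from IL8 is a match to the looser pattern and the other 7 are matches to the consensus. Counted from the start site at 0, the most upstream base of each match was at -49 in NFKB1, -81 in NFKBIA, -55 in TNFAIP3, -135 in BIRC3, -73 in IL6, -91 in IL8, -78 in CXCL1 and -77 in CXCL2. Neither RELA window held a match to any of the 3 patterns, which says only that these letters are not in these windows. IL8 was the one member with an AP-1 match, at -137. AP-1 matches were present in 7.71% of all windows.

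**Figure D1:**
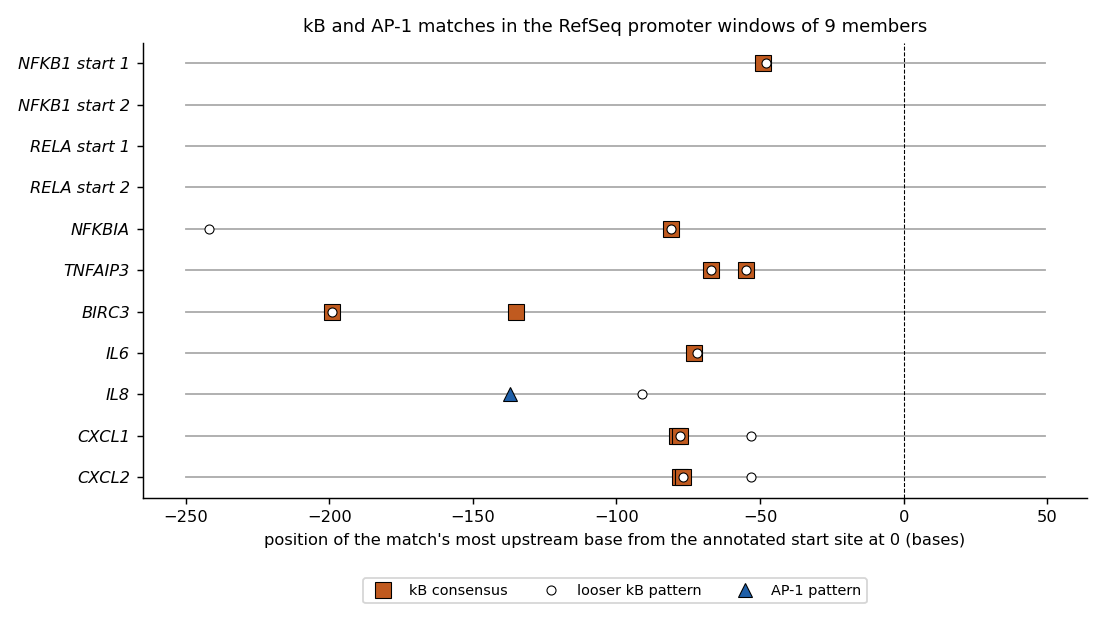
Positions of kB and AP-1 matches (x axis, bases from the annotated start site at 0) in 11 RefSeq promoter windows of 9 members (rows). Squares are consensus matches, open circles the looser pattern and the triangle AP-1; in 7 of the 9 members at least 1 square is present, and the CXCL1 and CXCL2 rows have the same arrangement to within 1 base.

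The windows of NFKBIA and CXCL1 are given whole, NFKBIA as the inhibitor with the best-known feedback and CXCL1 as the only cytokine or chemokine member with a ratio at both times. Capitals mark all kB matches. The NFKBIA window is chr14:35404700-35404999 (GRCh38.p14, minus strand) and the CXCL1 window is chr4:73869143-73869442 (GRCh38.p14, plus strand).

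NFKBIA: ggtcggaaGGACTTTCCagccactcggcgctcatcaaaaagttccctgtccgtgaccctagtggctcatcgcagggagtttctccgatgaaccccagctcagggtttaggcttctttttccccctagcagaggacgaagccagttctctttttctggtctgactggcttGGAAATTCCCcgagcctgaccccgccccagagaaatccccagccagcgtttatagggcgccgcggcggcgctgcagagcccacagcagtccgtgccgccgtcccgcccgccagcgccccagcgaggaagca
CXCL1: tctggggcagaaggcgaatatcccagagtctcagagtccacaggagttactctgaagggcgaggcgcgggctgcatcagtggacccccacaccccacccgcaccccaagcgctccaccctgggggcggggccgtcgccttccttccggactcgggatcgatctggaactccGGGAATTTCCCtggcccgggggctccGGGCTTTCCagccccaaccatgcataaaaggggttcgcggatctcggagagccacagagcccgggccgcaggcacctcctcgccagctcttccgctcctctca

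The NFKBIA window held a looser match at -242 besides the consensus match at -81. In CXCL1 the consensus matched on both strands at -79 and -78, which overlap, and the looser pattern matched again at -53.

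RELA, which encodes the p65 subunit with the transactivation domain, was at 18.1 FPKM in untreated and 4.48 in treated cells at 2 h, and at 14.8 and 3.35 at 4 h. Both untreated libraries were thus well above both treated ones. The level was 4.05-fold lower in treated cells at 2 h (log2 ratio -2.02) and 4.43-fold lower at 4 h (-2.15), while the untreated libraries differed by 1.22-fold (4U over 2U, -0.29). RELA lies at chr11:65421070-65430561 on the minus strand (GRCh37), and its exons overlap those of RELA-DT on the opposite strand. Whether strand was used in counting is not given in the sources used here, so reads of these 2 genes cannot be told apart where they overlap.

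NFKB1, the precursor of the p50 subunit, was far lower, at 0.4965 FPKM in untreated and 0.23 in treated cells at 2 h, and at 0.6593 and 0.5183 at 4 h. The RELA level was 36.5 times that of NFKB1 in 2U and 6.46 times in 4T, so the distance between the RNA levels of the 2 genes was smallest in 4T. At 4 h, genes of like GC content, a measure described further on, had a median log2 ratio of -0.95 for RELA and -0.10 for NFKB1. How much of the smaller distance belongs to base composition was not tested. NFKB1 was 2.16-fold lower in treated cells at 2 h (log2 ratio -1.11) and 1.27-fold lower at 4 h (-0.35). Its values at 2 h stood in the ratio of 2 reads to 1 in smallest whole numbers, once the depth of the libraries is allowed for, so they may rest on few reads. Multiples of these numbers give the same ratio, so they are not read counts.

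No other Rel subunit was at least 2-fold lower in treated cells at both times, as RELA was. NFKB2, the precursor of p52, was at 1.66 FPKM in untreated and 1.25 in treated cells at 2 h, and at 1.21 and 1.02 at 4 h. RELB, its partner in the non-canonical pathway, was at 1.19 FPKM in untreated and 3.49 in treated cells at 2 h, and at 2.68 and 2.37 at 4 h, which is 2.92-fold higher in treated cells at 2 h and within 1.13-fold at 4 h. Centred on housekeeping genes, the log2 ratio at 2 h was 0.66 for RELB, under 2-fold, and -1.30 for NFKB2, beyond 2-fold lower. This centring took 0.89 from every log2 ratio at 2 h. With it NFKBIB (-1.29), IKBKG (-1.25), CFLAR (-1.31) and BCL2L1 (-1.04), named below, were among further genes beyond 2-fold lower. Relative to genes of like GC content, RELB and NFKB2 were higher in treated cells at 4 h, at 0.99 and 0.83, where their uncentred log2 ratios were -0.18 and -0.25. RELA exceeded RELB 15.2 times in 2U and 5.53 times in 4U, but only 1.28 times in 2T and 1.41 times in 4T. REL was listed at 0 in all 4 libraries.

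NFKBIA, which encodes IkB-alpha, was at 18.4 FPKM in untreated and 2.81 in treated cells at 2 h, and at 20.05 and 5.55 at 4 h. The untreated libraries were close together (1.09-fold, log2 ratio 0.12) and both treated ones lay below them. The level was 6.55-fold lower in treated cells at 2 h (log2 ratio -2.71) and 3.61-fold lower at 4 h (-1.85), and it was 1.98-fold higher in 4T than in 2T. NFKBIA and RELA stood at nearly the same level in 2U, with an NFKBIA to RELA ratio of 1.02, against 0.628 in 2T, 1.35 in 4U and 1.66 in 4T. NFKBIA lies at chr14:35870285-35873955 on the minus strand (GRCh37) with no overlapping exons of other genes.

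A second classical inhibitor, NFKBIE (IkB-epsilon), was at 14.2 FPKM in untreated and 2.50 in treated cells at 2 h, and at 5.90 and 2.35 at 4 h. As for NFKBIA, both treated libraries were below both untreated ones (log2 ratio -2.51 at 2 h and -1.33 at 4 h), but NFKBIE was also 2.41-fold lower in 4U than in 2U. Relative to genes of like GC content, a measure described further on, its log2 ratio was -2.17 at 2 h and -0.26 at 4 h. NFKBIB (IkB-beta) was at 7.87 FPKM in untreated and 5.97 in treated cells at 2 h, and at 15.9 and 7.17 at 4 h, a log2 ratio of -0.40 at 2 h and -1.15 at 4 h. Relative to genes of like GC content, NFKBIB was at 0.028 at 4 h, so its 2-fold difference was not kept. BCL3, a nuclear IkB protein that acts with p50 and p52 on DNA, differed by 1.08-fold at 2 h and 1.17-fold at 4 h between treated and untreated cells (log2 ratio -0.11 and 0.23), with levels of 0.6725 to 2.1541 FPKM. NFKBIZ and NFKBID were listed at 0 throughout.

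TNFAIP3, the A20 ubiquitin-editing enzyme that ends NF-kB signalling and a classical target of the pathway, was listed at 0 in all 4 libraries. An exact 0 in these values cannot be read as absence, because widely used genes such as XIAP and REL were listed at 0 too. BIRC3, which encodes the inhibitor of apoptosis cIAP2, was listed at 0 in 2U, 2T and 4U and was at 0.4914 FPKM in 4T. Exons of BIRC3 and of TNFAIP3 overlap those of genes on the opposite strand, so the limit given for RELA holds for both.

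The cytokine and chemokine members were low, with a highest value of 2.2444 FPKM, that of CXCL1 in 4U. IL6, a cytokine of the acute-phase response, was listed at 0 in 2U, 2T and 4T and was at 0.6009 FPKM in 4U. IL8, the main neutrophil chemokine, was at 0.4115 FPKM in 2U and 0.7695 in 4U and was listed at 0 in both treated libraries. For both genes the only values above 0 were thus in untreated cells. Exons of IL6 overlap those of IL6-AS1 and STEAP1B on the opposite strand, so the limit given for RELA holds for IL6 too.

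CXCL1, a second neutrophil chemokine, was at 0.4143 FPKM in untreated and 0.5745 in treated cells at 2 h, and at 2.2444 and 0.7888 at 4 h. The 4U library stood apart, 5.42-fold above 2U (log2 ratio 2.44) and 2.85-fold above 4T (-1.51 for treated over untreated), whereas the treated library was 1.39-fold higher at 2 h (0.47), a direction that turned (-0.42) when centred on housekeeping genes. CXCL2, the near copy of CXCL1, was at 0.1895 FPKM in 2U, listed at 0 in 2T, at 1.4814 in 4U and at 0.5595 in 4T. Here too 4U was highest, 7.82-fold above 2U (2.97) and 2.65-fold above 4T (-1.40). The 2 values of CXCL1 at 2 h stood in the ratio of 2 to 3 reads in smallest whole numbers, or multiples of these. The difference at 2 h may thus be that of single reads.

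CXCL1 lies at chr4:74735110-74737025 on the plus strand and CXCL2 at chr4:74962757-74964913 on the minus strand (GRCh37), both in the chemokine cluster that also holds IL8. Their transcripts are alike: of the 35-base windows of CXCL1, 39.4% occur in CXCL2 or CXCL3 with at most 2 mismatches, and of those of CXCL2, 50.7% occur in CXCL1 or CXCL3. How reads from such stretches were shared out can move counts between them, so the separate values of CXCL1 and CXCL2 are uncertain. CXCL3 and CXCL5 were listed at 0 in all 4 libraries.

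CCL2, the monocyte chemoattractant, went the other way from IL6 and IL8. It was listed at 0 in 2U, 2T and 4U and was at 1.0851 FPKM in 4T.

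**Figure D2:**
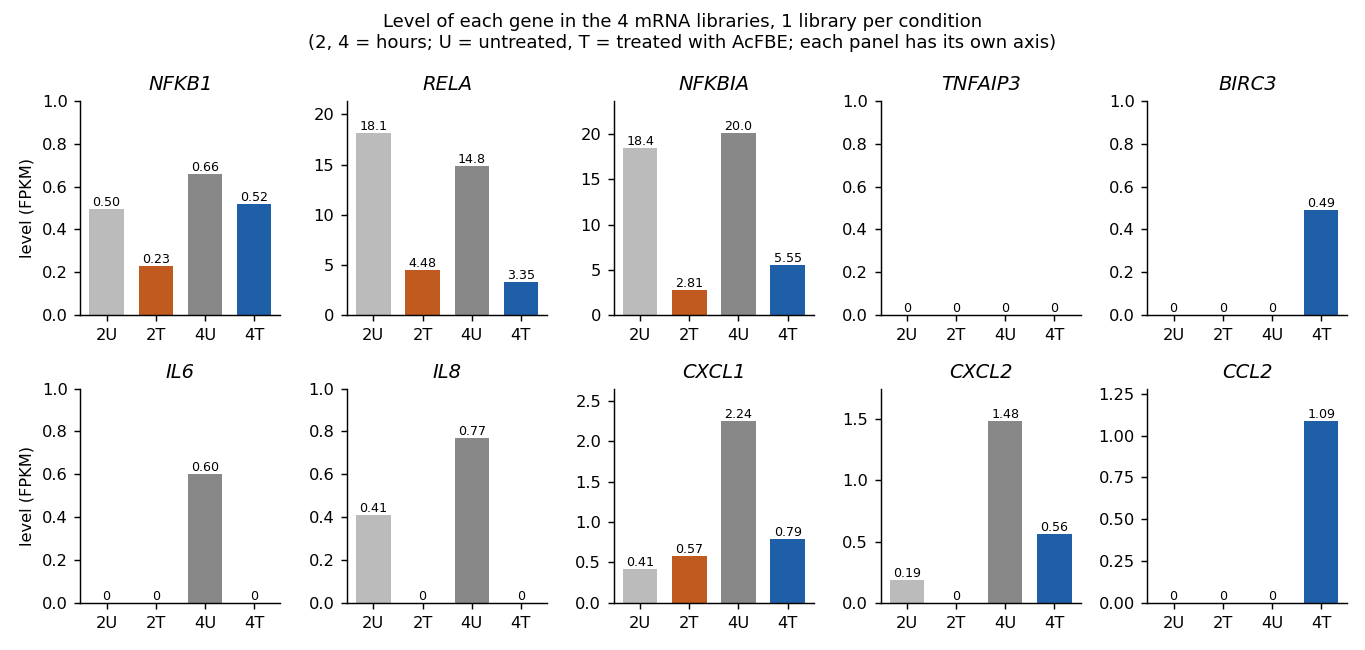
Level of each of the 10 genes (y axis, FPKM, each panel with its own scale from 0) in the libraries 2U, 2T, 4U and 4T, 1 bar per library and no error bars because there was 1 library per condition. RELA and NFKBIA are lower in both treated libraries than in both untreated ones, CXCL1 and CXCL2 are highest in 4U, and TNFAIP3 has no bar.

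Counted over the members, 4 had a value above 0 in both libraries at 2 h, and 3 of these (RELA, NFKBIA and NFKB1) were at least 2-fold lower in treated cells, where 18.4% of the 8448 genes with such a ratio were as well. With GC content allowed for, NFKB1 came to -0.94 and the count to 2, and the matching share of all genes was not counted. None was at least 2-fold higher, against 23.4% of all genes. At 4 h, 5 members had a ratio and 4 (RELA, NFKBIA, CXCL1 and CXCL2) were at least 2-fold lower, against 20.9% of 8651 genes. Again none was at least 2-fold higher, against 12.6% of all genes. The median log2 ratio over the members with a value was -1.56 at 2 h and -1.51 at 4 h, and over all genes it was 0.065 and -0.18. BIRC3, IL6, IL8 and CCL2, with a 0 in at least 1 library of each time, and TNFAIP3 are in none of these counts. The members, and the pathway lists below, were chosen with earlier results of these data known. Their counts beside the shares of all genes are therefore a description only.

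Between the untreated libraries, CXCL1 and CXCL2 were the 2 of 6 members at least 2-fold higher at 4 h than at 2 h, a direction in which 34.5% of 9021 genes lay. No member was at least 2-fold lower there, against 7.27% of all genes. Between the treated libraries, NFKB1 was the 1 of 4 members at least 2-fold higher at 4 h (2.25-fold, from 0.23 to 0.5183 FPKM), against 16.1% of 8034 genes, and no member was at least 2-fold lower, against 4.27%. The comparisons over time share their libraries with those of treatment, so they are not independent of them.

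Because genes of low FPKM vary more, NFKBIA and RELA were set beside the 1427 genes of similar level, with a mean of 5 to 20 FPKM over the 4 libraries. Of these, 1.54% had a log2 ratio as low as that of NFKBIA at 2 h and 7.78% at 4 h. For RELA these shares were 4.98% and 3.64%. The log2 ratio between the untreated libraries had an SD of 1.12 over the same genes. Over the 7678 genes with a ratio at both times, 615 (8.01%) were at least 2-fold lower in treated cells at both times and 504 (6.56%) at least 2-fold higher at both. NFKBIA and RELA belonged to the former, with 37 genes, itself included, as low as NFKBIA at both times and 48 as low as RELA.

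**Figure D3:**
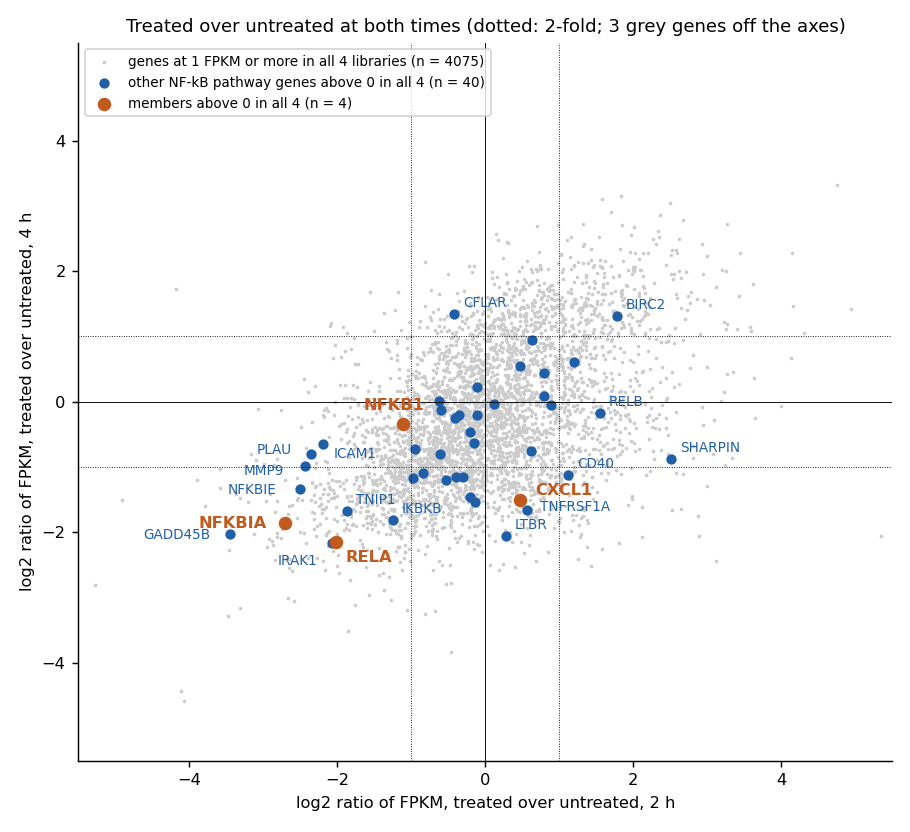
Log2 ratio of FPKM in treated over untreated cells at 2 h (x axis) and 4 h (y axis), with 4075 genes at 1 FPKM or more in all 4 libraries in grey, the NF-kB pathway genes above 0 in all 4 in blue and the members in orange. RELA and NFKBIA lie in the lower left beyond both dotted 2-fold lines, with GADD45B, IRAK1, NFKBIE and TNIP1 near them, and BIRC2 in the upper right.

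The base composition of transcripts moved with the treatment ratio and has to be read beside these values. Over the genes at 1 FPKM or more in all 4 libraries, the median log2 ratio of treated to untreated went from 0.75 for transcripts under 40% GC to -0.30 at 55 to 60% GC at 2 h, and was -0.19 at 60 to 65% and -0.076 at 65% and over. At 4 h it went from 1.05 to -0.87 for the same classes, and to -1.19 for transcripts of 65% GC and over. Spearman's rho between GC content and the log2 ratio over these genes was -0.248 at 2 h and -0.714 at 4 h. Genes of 1 library share its depth and preparation, and these correlations are a description. How much of any gene's ratio belongs to its base composition was not tested.

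Against genes within 2 percentage points of its own GC content (53.0%), NFKBIA was lower by a log2 ratio of -2.44 at 2 h and -1.44 at 4 h, and 1.29% and 3.22% of those 622 genes were as low. RELA (58.6% GC) was lower by -1.74 and -1.20 on the same scale, with 5.61% and 4.03% of 695 genes as low. Both genes thus kept a ratio beyond 2-fold at both times after centring, with that of RELA at 4 h going from -2.15 to -1.20. CXCL1 (45.4% GC) and CXCL2 (44.7% GC) lie where the median gene was higher in treated cells at 4 h, and relative to genes of like composition they were at -2.05 and -2.09.

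**Figure D4:**
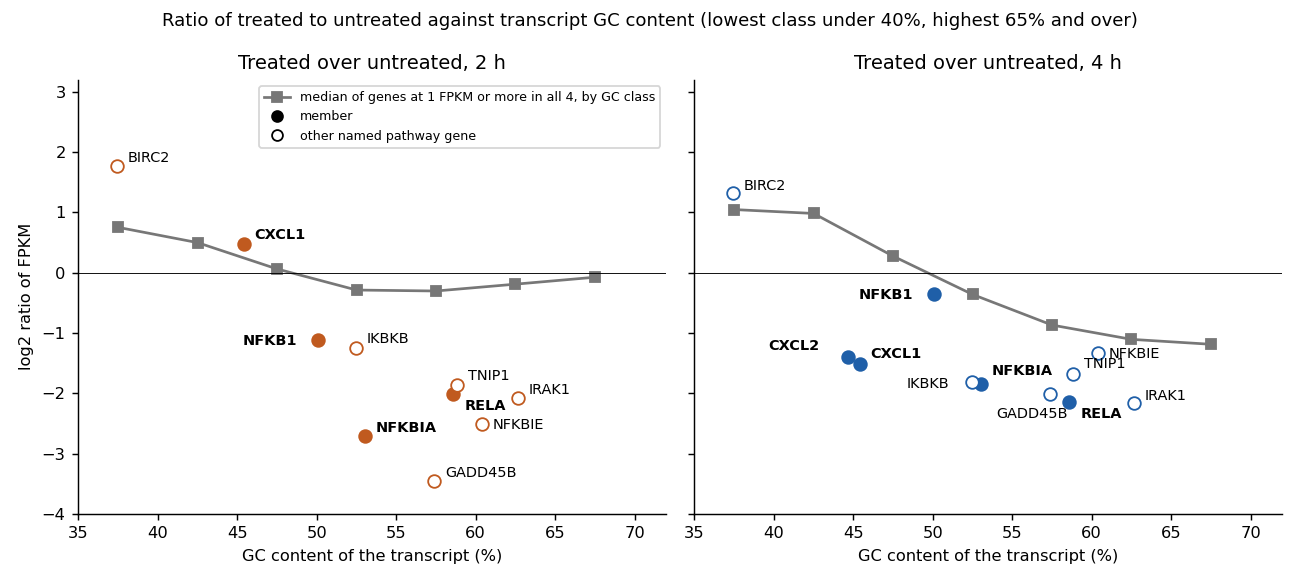
Log2 ratio of FPKM in treated over untreated cells (y axis) against GC content of the transcript in percent (x axis), at 2 h and 4 h. Grey squares are medians of genes at 1 FPKM or more in all 4 libraries by GC class, filled circles are members and open circles other named pathway genes; NFKBIA and RELA lie below the grey line at both times, and NFKBIE is close to it at 4 h.

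Around the members, 80 further genes of the pathway were listed by role, of which 53 were above 0 in at least 1 library. Of the 44 with a ratio at 2 h, 8 were at least 2-fold lower in treated cells and 5 higher, with a median log2 ratio of -0.20, against the 18.4% and 23.4% of all genes given above. Of the 42 with a ratio at 4 h, 15 were lower and 2 higher, with a median of -0.68, against 20.9% and 12.6% of all genes. With the members included, 47 of the 90 pathway genes had a ratio at 4 h, and 19 were at least 2-fold lower. With GC content allowed for, the 19 became 10. The share of all genes at least 2-fold lower with GC content allowed for was not counted.

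Among kinases that carry the signal to IkB, 1 of 8 with a ratio was at least 2-fold lower at each time, against 18.4% of all genes at 2 h and 20.9% at 4 h. This was IKBKB, the IKK-beta kinase that phosphorylates IkB-alpha, at 1.05 FPKM in untreated and 0.4424 in treated cells at 2 h, and at 1.02 and 0.2893 at 4 h (log2 ratio -1.25 and -1.82). The scaffold subunit IKBKG (NEMO) differed by 1.28-fold at 2 h and 1.16-fold at 4 h, with 10.8 FPKM in untreated and 8.44 in treated cells at 2 h, and 7.59 and 6.56 at 4 h. CHUK, the IKK-alpha kinase, was at 0.1273 FPKM in 2U, 0.1763 in 2T and 0.3321 in 4U and was listed at 0 in 4T.

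Among adaptors and ubiquitin ligases, IRAK1 was the most abundant and followed RELA closely. This kinase of the interleukin-1 and Toll-like receptor complexes was at 149.2 FPKM in untreated and 35.5 in treated cells at 2 h, and at 142.5 and 31.7 at 4 h, which is 4.21-fold lower at 2 h and 4.49-fold lower at 4 h (log2 ratio -1.89 and -1.05 relative to genes of like GC content). At 4 h, 5 of 9 genes of this list were at least 2-fold lower, and 1 of 11 at 2 h, where 20.9% and 18.4% of all genes were. The others at 4 h were TRAF2, TRADD, RBCK1 and RNF31 with log2 ratios of -1.09 to -1.46. These 4 transcripts hold 60.5% to 64.7% GC, and relative to genes of like composition they were at -0.40 to 0.072. SHARPIN, which forms the linear ubiquitin ligase with RBCK1 and RNF31, was at 4.36 FPKM in untreated and 24.9 in treated cells at 2 h, and at 31.8 and 17.3 at 4 h. Its 2U value was the one that stood apart, so that it was 5.70-fold higher in treated cells at 2 h and 1.83-fold lower at 4 h.

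Of the deubiquitinases and other brakes, TNIP1 was lower at both times. It encodes ABIN1, an A20-binding protein that restrains NF-kB, and was at 13.9 FPKM in untreated and 3.81 in treated cells at 2 h, and at 6.47 and 2.02 at 4 h (log2 ratio -1.87 and -1.68, or -1.57 and -0.71 relative to genes of like GC content). CYLD, a deubiquitinase that opposes IKK activation, stayed under 0.25 FPKM in all 4 libraries.

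Of the 4 receptors with a ratio, 3 had opposite signs at the 2 times. TNFRSF1A, the main TNF receptor, was at 10.3 FPKM in untreated and 15.3 in treated cells at 2 h, and at 21.4 and 6.82 at 4 h, and LTBR, the lymphotoxin receptor, was at 5.58, 6.73, 8.88 and 2.13 in the same order. CD40 was at 1.42 FPKM in untreated and 3.10 in treated cells at 2 h, and at 4.02 and 1.84 at 4 h. All 3 were higher in the treated library at 2 h, CD40 by 2.18-fold, and at least 2-fold lower at 4 h. In all 3 the 4U value was the highest. Of all genes, 23.4% were at least 2-fold higher at 2 h and 20.9% at least 2-fold lower at 4 h. The share of all genes with opposite signs was not counted. Centred on housekeeping genes, the log2 ratios at 2 h were 0.23 for CD40, under 2-fold, and -0.33 for TNFRSF1A and -0.62 for LTBR, which turned in direction. None of the 3 was beyond 2-fold at 4 h relative to genes of like GC content (-0.98 to -0.78). IL6ST, the shared signal chain of the IL6 family, stayed at or under 0.3141 FPKM. The interleukin-1 receptor IL1R1 and the Toll-like receptors TLR2, TLR3 and TLR4 were listed at 0 throughout.

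Among survival targets, GADD45B and BIRC2 lay at opposite ends. GADD45B, a stress gene that NF-kB induces, was at 47.0 FPKM in untreated and 4.28 in treated cells at 2 h, and at 21.2 and 5.22 at 4 h, the largest difference of the pathway at 2 h (10.98-fold lower) and 4.06-fold lower at 4 h. BIRC2, which encodes cIAP1, the sister of the BIRC3 protein, was at 0.5988 FPKM in untreated and 2.05 in treated cells at 2 h, and at 0.9458 and 2.36 at 4 h, so it was 3.42-fold and 2.49-fold higher in treated cells. At 37.4% GC its log2 ratio at 4 h of 1.32 came to 0.28 relative to genes of like composition, and its log2 ratio at 2 h of 1.77 came to 0.88 when centred on housekeeping genes. CFLAR, the caspase-8 inhibitor c-FLIP, was at 16.6 FPKM in untreated and 12.4 in treated cells at 2 h, and at 9.35 and 23.8 at 4 h, and BCL2L1, which encodes Bcl-xL, was at 13.9, 12.5, 28.2 and 9.77 in the same order. At 4 h the log2 ratio was 1.34 for CFLAR and -1.53 for BCL2L1, and relative to genes of like GC content it was 0.53 and -0.73, both under 2-fold. That of GADD45B at 4 h went from -2.02 to -1.15.

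The adhesion and matrix targets differed mainly at 2 h. PLAU, the urokinase plasminogen activator, was at 131.7 FPKM in untreated and 25.8 in treated cells at 2 h, and at 104.8 and 59.9 at 4 h. All 3 genes of the list with a ratio, PLAU, ICAM1 and MMP9, were at least 2-fold lower in treated cells at 2 h. Of all genes, 18.4% were at least 2-fold lower at 2 h. The log2 ratios of PLAU, ICAM1 and MMP9 were -2.35, -2.19 and -2.44 at 2 h. At 4 h these 3 genes were less than 2-fold lower (-0.81, -0.65 and -0.99). Relative to genes of like GC content they were at -2.08, -1.86 and -2.22 at 2 h, and at 4 h PLAU was at -0.40 while ICAM1 (0.11) and MMP9 (0.13) turned in direction. Each of the 3 was at least 2-fold higher in 4T than in 2T, as were 16.1% of all 8034 genes with that ratio. VCAM1, SELE and PTGS2 were listed at 0 in all 4 libraries.

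Other cytokine genes gave few values. IL1B was at 0.6068 FPKM in untreated and 0.8406 in treated cells at 2 h, and at 1.62 and 2.36 at 4 h, and LIF, a cytokine of the IL6 family, was at 0.686, 1.06, 2.16 and 1.28. Like CXCL1 and CXCL2, both were at least 2-fold higher in 4U than in 2U, a direction in which 34.5% of 9021 genes lay. Neither IL1B nor LIF differed by 2-fold between treated and untreated cells. TNF and 8 of the 12 chemokines listed were at 0 in all 4 libraries.

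**Figure D5:**
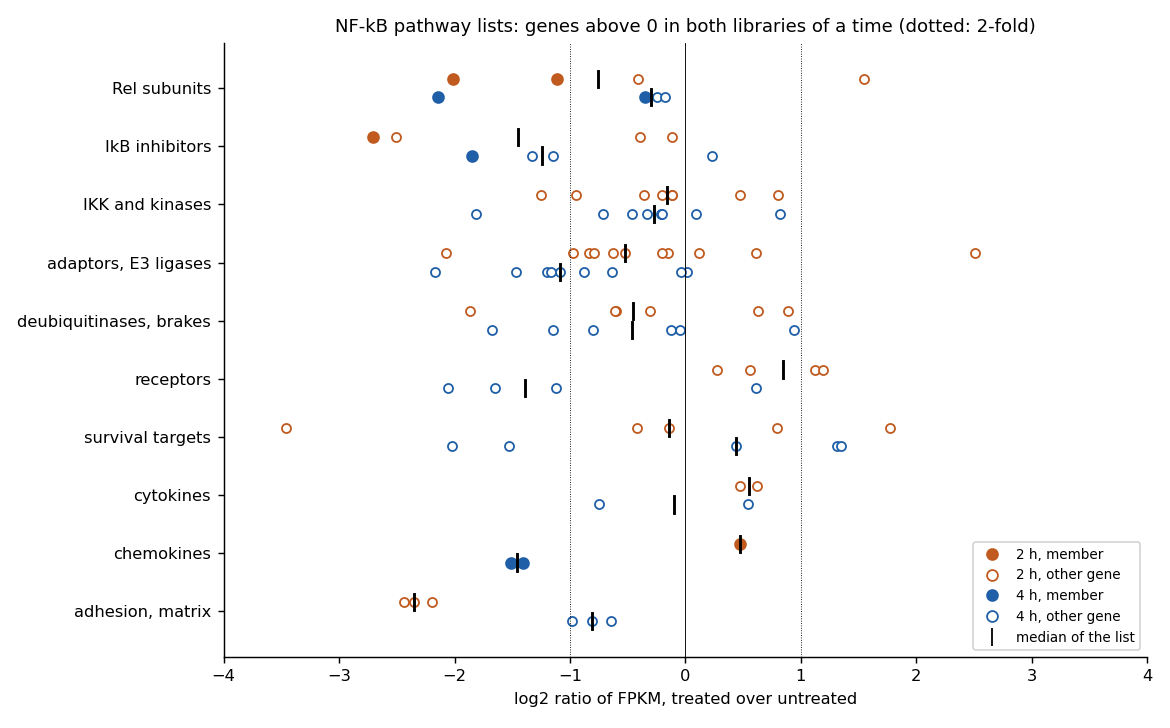
Log2 ratio of FPKM in treated over untreated cells (x axis) for the genes of 10 pathway lists (rows) that were above 0 in both libraries of a time, with 2 h in orange, 4 h in blue, members filled, other genes open, and the median of each list as a black bar. The adhesion and matrix genes lie left of -2 at 2 h and right of -1 at 4 h, and the receptors lie right of 0 at 2 h (2 of them left of it when centred on housekeeping genes) while 3 of their 4 lie left of -1 at 4 h.

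The levels above are shares of each library, and other features of the libraries differed between the conditions. The libraries had 8454 to 10691 genes above 0, and neither 4 h library held a value between 0 and 0.2 FPKM, while 2U held 2656 and 2T 1173. The gene counts that the study lists are the same at 4 h, 9550 in 4U and 9773 in 4T. At 2 h they differ from the 10691 in 2U and 8454 in 2T found here, and the study lists more genes in 2T than in 2U. The reason was not tested, and all ratios at 2 h rest on these 2 deposited columns. The summed FPKM of 8 housekeeping genes, with GAPDH the largest, was 27140 in 2U and 53978 in 4U, against 59577 in 2T and 55319 in 4T, so 2U stood apart, and their median log2 ratio of treated to untreated was 0.89 at 2 h and 0.30 at 4 h. Their part in the results was not tested. As shares of a library, these levels give neither the number of cells in a culture nor the amount of RNA per cell.

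The cell line was checked against marker genes. Of 8 hepatocyte markers, 6, including ALB, APOA1, TTR and HNF4A, were listed at 0 in all 4 libraries, and the summed level was 9.22 to 18.9 FPKM, nearly all from SERPINA1. Of 7 endothelial markers, 6, including PECAM1, VWF and CDH5, were listed at 0, with ENG at 8.65 to 24.8 FPKM. Of 7 leukocyte markers, 5, including PTPRC, were listed at 0, and the summed level was 8.87 to 14.0 FPKM, nearly all from CD68. The labels call the line a liver line. A listed 0 cannot be read as absence here, so these markers neither bear out nor go against that name.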

How the data were processed

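Poly(A) RNA of SK-HEP-1 cells was sequenced on a SOLiD 3 instrument in 4 libraries, 1 for each time and treatment. The authors aligned the reads to hg19 (GRCh37), with Bowtie per their methods and TopHat per the labels, and deposited FPKM per gene from Cufflinks, with versions not given in the sources used here. Read counts per gene were not part of the deposited values, so no counting interval is given, and the read totals of the libraries that the study lists were not used. The low values at 2 h came in steps, with a commonest ratio of 2U to 2T of 1.083 (142 genes); 23.0% of 2973 genes under 1 FPKM lay within 0.5% of this ratio times a quotient of whole numbers up to 4, against 2.19% for a step shifted by 3%, and the corresponding shares at 4 h were 4.96% and 3.54%. The miRNA tables of the series were not used here.

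From the deposited FPKM, log2 ratios were taken where both libraries had a value above 0, no pseudocount being added, and were counted at 2-fold. With 1 library per condition no test was run, and the counting was tested on simulated data. The 10 members and the gene lists were chosen with earlier results of these data known. Named besides the members were genes of a list at 1 FPKM or more in a library and at least 2-fold different in the same direction at both times (at most 4 per list), with CXCL3 and CXCL5, and further list genes, which were chosen after their values were seen. Centring on GC content, and setting values under 0.2 FPKM to 0, were alternatives chosen after seeing the data. GC content came from GENCODE transcripts (GRCh37), with 97.6% of 4075 genes matched and all 90 pathway genes. Promoter windows came from RefSeq (GRCh38.p14). Python 3.11.15, numpy 2.4.6, pandas 2.3.3 and matplotlib 3.10.9 were used.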

Additional observations from a re-analysis of the deposited data

Results flagged for a closer look

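CXCL1 was the 1 member with a value in all 4 libraries whose log2 ratio of treated to untreated had opposite signs at the 2 times, 0.47 at 2 h and -1.51 at 4 h. With 1 library per condition the difference between the times was not tested. The value at 2 h was -0.42 when centred on the housekeeping list, and the levels at 2 h stood in the ratio of 2 to 3 reads in smallest whole numbers.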

How the results depend on the processing

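Over 8 settings, the main one included, the log2 ratio of NFKBIA ranged from -3.60 to -2.35 at 2 h and from -2.15 to -1.44 at 4 h. That of RELA ranged from -2.91 to -1.74 at 2 h and from -2.45 to -1.20 at 4 h. The median over the members at 2 h became -0.13 with a pseudocount of 1 FPKM, -0.43 with one of 0.1 FPKM, -2.36 with at least 1 FPKM in both libraries and -2.46 when centred on the housekeeping list. The median at 4 h became -0.67, and that of the pathway genes 0, with a pseudocount of 1 FPKM. Pseudocounts bring genes listed at 0 into the count. The members at least 2-fold lower at 4 h numbered 2 with a pseudocount of 1 FPKM, with at least 1 FPKM in both libraries, or at 3-fold, and those higher 1 and 2 with pseudocounts of 1 and 0.1 FPKM. Members higher in 4U than in 2U numbered 0 with at least 1 FPKM and 1 with values under 0.2 FPKM set to 0, and 1 was lower when centred on the housekeeping list. Members higher in 4T than in 2T numbered 3 with a pseudocount of 0.1 FPKM, 2 when centred on genes at 1 FPKM in all 4 libraries or on genes of like GC content or at 1.5-fold, and 0 with at least 1 FPKM, when centred on the housekeeping list, or at 3-fold. Pathway genes higher at 2 h numbered 2 with a pseudocount of 1 FPKM. Pathway genes lower at 4 h numbered 12 with that pseudocount and when centred on genes at 1 FPKM in all 4 libraries, which left 4 higher, and 10 when centred on GC content, which left 1 higher. Beyond the alternatives' own construction the cause of these moves was not tested. The median log2 ratio subtracted in centring was -0.34 at 4 h for genes at 1 FPKM and 0.89 at 2 h for the housekeeping list. Low levels limit all members except RELA and NFKBIA. No paired analysis was possible because conditions of 1 library share no replicate numbers; a fit of treatment with time as a term was not run.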
